A study of Mus musculus with 7 samples.

Results

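Solute carriers are membrane proteins, named Slc with a family number, that move sugars, organic acids, amino acids, ions, metals, nucleotides, vitamins and lipids across the plasma membrane and the membranes of organelles. The genes described here are the protein-coding genes whose mouse symbol starts with Slc and a digit and whose raw counts summed to at least 200 over all 7 libraries. The deposited table lists 53379 genes, of which 371 are protein-coding Slc genes, and 169 of these reached 200 counts. Among the 169, 165 encode carriers, and 4 (Slc9a3r1, Slc9a3r2, Slc7a6os and Slc4a1ap) are named after a carrier they bind or lie beside. The genes were thus chosen by their summed raw count, and their levels are given as a description with no test. That sum pools both genotypes, so a gene near 200 counts may have reached it through the group where it was high. The set was also proposed with earlier results of these data in view.

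Natural killer (NK) cells, innate lymphocytes that kill infected and transformed cells, were sorted from C57BL/6 mouse spleen directly ex vivo and their RNA was sequenced. The sort gate was CD45+ CD3- NK1.1+ NKp46+ CD49b+, and libraries were labelled Hhex KO (n = 4) or Cre control (n = 3). Hhex encodes a homeobox transcription factor. The Cre driver, the allele, any pooling and the age of the mice were not stated in the labels, so which other cells of the Hhex KO mice lost the gene is not known here. The comparison asks how expression in NK cells differs when Hhex is deleted. The NK markers Ncr1, which encodes NKp46, and Klrb1c, which encodes NK1.1, stood at 791 to 1035 CPM and 1179 to 1856 CPM in the 7 libraries. CPM are read counts relative to the TMM-scaled library size, a scaling that assumes most genes to be equal between libraries.

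Carriers work by alternating access: facilitators let a solute run down its gradient, while cotransporters and exchangers couple it to sodium, protons or another solute. In lymphocytes, GLUT1 and GLUT3 (Slc2a1, Slc2a3) bring in glucose, MCT1 and MCT4 (Slc16a1, Slc16a3) move lactate, and the heavy chain CD98 (Slc3a2) pairs with LAT1 (Slc7a5) to take up large neutral amino acids. Most family 25 carriers link the cytosol to the mitochondrial matrix. Resting lymphocytes keep many of these at modest levels, and NK cells raise glucose and amino acid uptake when cytokines activate them.

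Total counts ranged from 10589915 to 18456404 per library. Hhex itself read 96.1, 95.6 and 93.5 CPM in the Cre controls and 58.0, 56.5, 54.2 and 64.8 CPM in the Hhex KO libraries, a log2 fold change of -0.70 ± 0.10 (SE; adjusted p = 0.00768 by edgeR's quasi-likelihood test). Counts per gene cannot say which exons were lost, and without Cre control replicate 1 the adjusted p was 0.0516. Hhex KO replicates 1 and 4 stood apart from replicates 2 and 3: the chi-square per degree of freedom between their gene counts was 62.8 to 71.5 across these pairs, against 25.9 between 1 and 4 and 10.4 between 2 and 3. The same pairs differed in the summed level of the 3 tested nuclear-retained RNAs, at 1130 and 1058 CPM in replicates 1 and 4 and 202 and 179 CPM in replicates 2 and 3, with 315 to 804 CPM in the controls. The summed levels of proliferation, dissociation stress and platelet genes did not overlap between the genotypes, while those of T-cell, B-cell and neutrophil genes overlapped. Proliferation genes summed to 277 to 419 CPM in Cre control against 431 to 875 CPM in Hhex KO. Of the 9, edgeR called 4 higher (background 2.68%), DESeq2 6 (4.54%), limma-voom 4 (2.71%) and limma-voom with sample quality weights 9 (12.6%). Dissociation stress genes summed to 4248 to 5800 CPM and 375 to 2576 CPM. Of the 9, edgeR called 0, 6 had an unadjusted p under 0.05 (background 18.5%) and DESeq2 called 2 lower (3.14%). Limma-voom called 2 lower (2.06%) and limma-voom with sample quality weights 6 lower (10.9%). Platelet genes summed to 18.2 to 32.9 CPM and 5.31 to 18.0 CPM. Of the 4, edgeR called 0, 4 had an unadjusted p under 0.05 (background 18.5%) and DESeq2 called 2 lower (3.14%). Limma-voom called 0 and limma-voom with sample quality weights 2 lower (10.9%). T-cell genes summed to 53.8 to 81.1 CPM and 75.9 to 145 CPM. Cd3d, Cd3e, Cd3g and Trac had log2 fold changes of 0.97, 0.87, 0.72 and 0.49. Cd4, Cd8a and Cd8b1 were too low to be tested, reaching at most 2.91, 0.458 and 0.453 CPM in any library. Of the 4 tested, edgeR called 0, 4 had an unadjusted p under 0.05 (background 18.5%) and DESeq2 called 1 higher (4.54%). Limma-voom called 0 and limma-voom with sample quality weights 4 higher (12.6%). B-cell genes summed to 211 to 256 CPM and 240.0 to 404 CPM. Nearly all of it was Ighm, and Cd79b was called higher by edgeR (background 2.68%). The part of these differences in the results on carriers was not tested, and in these bulk samples fewer cells of a type and less RNA per cell cannot be told apart.

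All 169 genes passed the filter on low counts, and 5 were called (adjusted p under 0.05 over the 12161 genes tested), against 4.56% of all genes tested. The 5 are 2.96% of the set. In Hhex KO 2 were higher, against 2.68% of all genes, and 3 were lower, against 1.87%. The unadjusted p was under 0.05 for 31 (18.3%; background 18.5%), and Hhex KO and Cre control did not overlap for 33 (19.5%; background 19.3%). Of those 33, 13 were higher in Hhex KO (7.69%; background 9.37%) and 20 lower (11.8%; background 9.98%). These shares lay near the background. The median log2 fold change of the 169 genes was -0.00024, against 0.018 for all genes tested, with 84 positive and 85 negative. For 145 of them (85.8%) the estimate lay within 0.5 of zero, against 80.7% of all genes tested, and for 6 (3.55%) it reached 1 in size, against 7.46%. The genes tested also include genes below 200 summed counts, among them 16 other Slc genes, so these shares compare sets that differ in counts. The numbers of genes called, and the share called over all genes, moved with the analysis. DESeq2 called 6 of the 169 higher (background 4.54%) and 7 lower (3.14%), limma-voom 2 (2.71%) and 2 (2.06%), and limma-voom with sample quality weights 16 (12.6%) and 18 (10.9%). With no filter there were 4 higher (1.66%) and 4 lower (0.976%), with the replicate block 8 (4.11%) and 3 (2.27%), and without Hhex KO replicate 4 there were 7 (4.35%) and 4 (2.4%). Leaving out Cre control replicate 1, 2 or 3 kept 1 higher gene each time (0.723%, 1.21% and 0.766%) and 1, 2 and 1 lower genes (0.397%, 0.651% and 0.459%). Together the 169 genes took 0.799 to 0.865% of the counts in Cre control and 0.782 to 0.883% in Hhex KO.

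The largest difference belonged to Slc9a3r2 (ENSMUSG00000002504.14, chromosome 17, 24639286 to 24650327), which encodes NHERF2, a PDZ scaffold that tethers sodium-proton exchangers and other membrane proteins and is not itself a carrier. It stood at 2.25, 3.08 and 2.59 CPM in the Cre controls and at 14.6, 14.2, 16.0 and 8.94 CPM in the Hhex KO libraries. Every Hhex KO library lay above every control. Slc9a3r2 rose by 2.35 ± 0.25 on the log2 scale (SE; edgeR adjusted p = 0.00167), with a mean of 2.64 ± 0.418 CPM in Cre control (SD, n = 3) and 13.5 ± 3.10 CPM in Hhex KO (SD, n = 4). Its call held in every alternative fit. Its paralogue Slc9a3r1, which encodes NHERF1, was far more abundant per length, at 154 ± 11.5 RPKM in Cre control (CPM per kilobase of merged exons) against 0.998 ± 0.158 RPKM for Slc9a3r2, and was not called.

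Slc27a6 (ENSMUSG00000024600.8, chromosome 18, 58556257 to 58612773), a fatty acid transport protein of the FATP family, was the only carrier called higher. It read 9.67, 11.1 and 10.3 CPM in Cre control and 18.3, 18.96, 23.8 and 17.3 CPM in Hhex KO, with no overlap. Slc27a6 rose by 0.92 ± 0.16 on the log2 scale (edgeR adjusted p = 0.0145). The call was lost when any control library was left out, at adjusted p = 0.0851, 0.0541 and 0.0813 without Cre control replicates 1, 2 and 3.

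Slc35e4 (ENSMUSG00000048807.2, chromosome 11, 3907021 to 3914664), an orphan of the nucleotide-sugar transporter family, had the largest decrease among the called genes of the set. Its levels were 23.9, 24.4 and 21.7 CPM in Cre control and 9.52, 11.4, 9.31 and 6.91 CPM in Hhex KO, so that each Hhex KO library lay well below each control. Slc35e4 fell by 1.32 on the log2 scale (SE 0.17, edgeR adjusted p = 0.00482), and this call held in every alternative fit.

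Slc39a13 (ENSMUSG00000002105.15, chromosome 2, 91061791 to 91070417) encodes ZIP13, a zinc transporter of intracellular membranes. It read 22.9, 18.3 and 21.6 CPM in Cre control and 12.2, 8.99, 7.13 and 11.3 CPM in Hhex KO. The groups did not overlap, and Slc39a13 fell by 1.08 on the log2 scale (SE 0.20, edgeR adjusted p = 0.0204), a call lost without Cre control replicate 1 (0.109) or 3 (0.107). Of its exon bases, 4.42% overlap Psmc3 on the opposite strand, whose own log2 fold change was 0.00 ± 0.14.

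Slc46a3 (ENSMUSG00000029650.10, chromosome 5, 147878437 to 147894815), a proton-coupled carrier of the lysosomal membrane, was at 29.5, 28.5 and 23.8 CPM in Cre control and 14.6, 20.05, 18.0 and 18.1 CPM in Hhex KO. It fell by 0.62 on the log2 scale (SE 0.15, edgeR adjusted p = 0.0488), with no overlap. This call lay at the threshold. It was lost with upper-quartile scaling (0.0578), the stricter filter (0.0514), limma-voom (0.0535) and the replicate block (0.0673), and without Cre control replicate 1 (0.195), 2 (0.172) or 3 (0.0991) or Hhex KO replicate 1 (0.072), 2 (0.0586) or 3 (0.106).

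**Figure D1:**
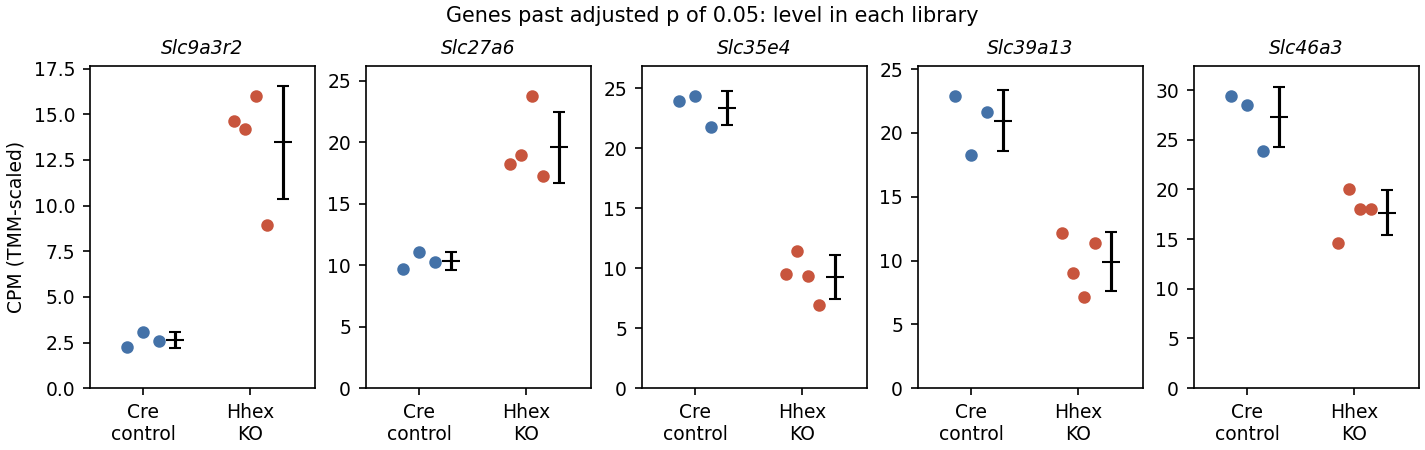
Level of the 5 called genes in each library, in CPM of the TMM-scaled library size (y axis, linear from 0), by genotype; points are libraries and bars the mean ± SD (n = 3 Cre control, n = 4 Hhex KO). For all 5 the Hhex KO points lie clear of the Cre control points, above them for Slc9a3r2 and Slc27a6 and below them for Slc35e4, Slc39a13 and Slc46a3.

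The windows of 250 bases before the RefSeq start (GRCm38.p6) are shown for the genes whose calls held throughout, 1 higher and 1 lower, both read on the minus strand, at chr17:24650306-24650555 and chr11:3914665-3914914. Homeodomains commonly bind a TAAT core, and capitals mark a TAAT on either strand (ATTA on the printed one).
Slc9a3r2: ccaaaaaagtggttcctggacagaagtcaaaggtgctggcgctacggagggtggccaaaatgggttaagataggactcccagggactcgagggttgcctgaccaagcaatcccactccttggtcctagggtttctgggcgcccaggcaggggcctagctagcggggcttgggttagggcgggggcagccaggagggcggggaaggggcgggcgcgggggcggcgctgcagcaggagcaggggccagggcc
Slc35e4: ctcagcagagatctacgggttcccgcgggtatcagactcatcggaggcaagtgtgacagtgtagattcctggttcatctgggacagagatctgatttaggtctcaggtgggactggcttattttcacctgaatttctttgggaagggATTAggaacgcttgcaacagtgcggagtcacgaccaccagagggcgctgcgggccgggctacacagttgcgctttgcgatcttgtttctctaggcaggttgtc
The Slc9a3r2 window is rich in G and C (66.4%) and held 0 matches, while that of Slc35e4 (53.6% G and C) held 1. A TAAT stood in 45 of the 127 windows matched to genes of the set (35.4%), in 38.6% of 9134 windows of genes tested and in 55.3% of all 27025 windows. TGATGNAA, another motif searched on both strands, was in 3 of the 127 (2.36%; Slc50a1, Slc7a7 and Slc9a9) and in 1.90% of windows of genes tested, and in neither printed window. A match is a description of the letters and not a binding site.

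**Figure D2:**
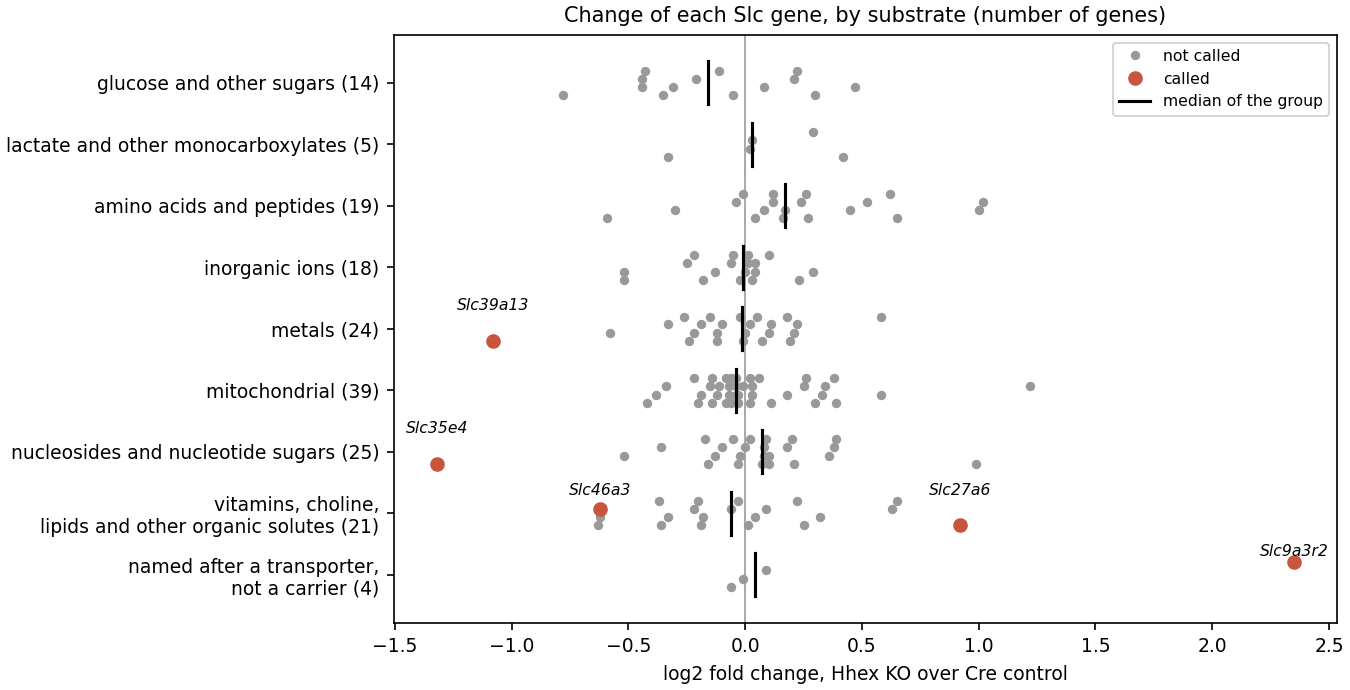
Log2 fold change (x axis, Hhex KO over Cre control) of each of the 169 genes, in rows by substrate, with the number of genes in brackets; vertical bars are group medians and the coloured, labelled points are the 5 called genes. Group medians run from -0.16 for sugars to 0.17 for amino acids and peptides, and most points lie within 0.5 of zero.

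Of the 14 carriers of glucose and other sugars, 0 were called by edgeR. For 6 the unadjusted p was under 0.05 (background 18.5%). DESeq2 called 1 lower (background 3.14%), limma-voom 0, and limma-voom with sample quality weights 4 lower (10.9%). The median log2 fold change was -0.16, with 9 negative, and the groups did not overlap for 6 that were lower in Hhex KO (background 9.98%) and 2 that were higher (background 9.37%). The summed level was 516 to 557 CPM in Cre control against 444 to 467 CPM in Hhex KO, so the sums did not overlap. GLUT3, the high-affinity glucose transporter Slc2a3, was at 158, 174 and 174 CPM in Cre control and 126, 132, 139 and 102 CPM in Hhex KO. All 4 Hhex KO values lay below the controls, and its log2 fold change of -0.44 ± 0.13 had an edgeR adjusted p of 0.0986 (DESeq2 0.0348; by limma-voom with sample quality weights 0.0215). GLUT1, Slc2a1, read 85.1, 96.1 and 91.0 CPM against 61.3, 83.0, 82.5 and 58.2 CPM, a log2 fold change of -0.35 ± 0.15 (edgeR adjusted p = 0.27). Within Hhex KO, the lower Slc2a1 values were those of replicates 1 and 4. Slc5a11, a sodium-coupled inositol cotransporter, was low throughout, at 5.25, 4.40 and 4.16 CPM against 2.59, 2.75, 2.59 and 2.75 CPM (log2 fold change -0.78 ± 0.20, edgeR adjusted p = 0.0669; by limma-voom with sample quality weights 0.0163). Slc37a2, a sugar-phosphate exchanger of the endoplasmic reticulum, was at 31.3 to 41.5 CPM in Cre control against 25.8 to 28.1 CPM in Hhex KO (edgeR adjusted p = 0.0953; by limma-voom with sample quality weights 0.0157). Slc50a1, a sugar efflux protein of the SWEET family, was the most abundant of the group per length, at 44.7 ± 2.37 RPKM in Cre control and 41.5 ± 5.37 RPKM in Hhex KO.

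The 5 carriers of lactate and other monocarboxylates were expressed at lower levels, and 0 were called by edgeR, DESeq2, limma-voom or limma-voom with sample quality weights, with 0 at an unadjusted p under 0.05. MCT1, Slc16a1, was at 8.32, 16.5 and 14.1 CPM in Cre control and 14.4, 22.8, 20.9 and 11.3 CPM in Hhex KO. The groups overlapped, and the log2 fold change was 0.42 ± 0.30 (edgeR adjusted p = 0.53). MCT4, Slc16a3, which exports lactate from glycolytic cells, was at 7.64, 10.6 and 7.51 CPM against 8.16, 12.7, 12.02 and 9.03 CPM (0.29 ± 0.22, adjusted p = 0.557). Slc16a7, the high-affinity pyruvate carrier MCT2, was at 4.93 to 5.70 CPM against 3.76 to 4.48 CPM (adjusted p = 0.385). Slc16a6 led the group per length, at 8.26 ± 0.876 RPKM in Cre control and 8.39 ± 1.83 RPKM in Hhex KO, but 21.5% of its exon bases are shared with Amz2. Emb, which encodes embigin, a partner that carries monocarboxylate transporters to the cell surface and is not a carrier itself, read 115, 153 and 138 CPM in Cre control and 249, 324, 328 and 226 CPM in Hhex KO. All Hhex KO values lay above the controls, and Emb rose by 1.06 ± 0.18 on the log2 scale (edgeR adjusted p = 0.0132), a call lost without Cre control replicate 1 (0.0784) or 3 (0.0742). Of 8 tested chaperones and partner subunits of carriers, of 9 listed, Emb was the 1 gene called. That held by edgeR (background 2.68% higher), DESeq2 (4.54%), limma-voom (2.71%) and limma-voom with sample quality weights (12.6%) alike. The related partner Nptn, neuroplastin, stood at -0.26 ± 0.11 in log2 fold change (adjusted p = 0.251).

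Of the 19 carriers of amino acids and peptides, 0 were called by edgeR, with 5 at an unadjusted p under 0.05 (background 18.5%). DESeq2 called 1 higher (background 4.54%) and 1 lower (3.14%), limma-voom 0, and limma-voom with sample quality weights 4 higher (12.6%) and 2 lower (10.9%). The median log2 fold change was 0.17, with 15 positive and 4 negative, and summed levels overlapped at 1191 to 1411 CPM in Cre control against 1236 to 1461 CPM in Hhex KO. CD98 heavy chain, Slc3a2 (ENSMUSG00000010095.13, chromosome 19, 8706882 to 8723369), was the most abundant per length at 46.7 ± 1.85 RPKM in Cre control. It read 158, 171 and 166 CPM in Cre control and 113, 130, 111 and 84.1 CPM in Hhex KO. Every Hhex KO library lay below every control, and the log2 fold change of -0.59 ± 0.15 just missed the call (edgeR adjusted p = 0.0604, the lowest of the 164 genes not called). It was called by DESeq2 (0.00791), by limma-voom with sample quality weights (0.0117), with no filter (0.0423) and without Hhex KO replicate 2 (0.0493) or 4 (0.0356). Its light chain LAT1, Slc7a5, varied widely within both groups, at 7.79, 22.3 and 18.0 CPM against 17.9, 29.2, 32.2 and 12.4 CPM (0.52 ± 0.42, edgeR adjusted p = 0.586). The glutamine carriers overlapped between genotypes. ASCT2, Slc1a5, was at 97.5, 109 and 95.6 CPM against 119, 93.6, 112 and 129 CPM (0.17 ± 0.13, adjusted p = 0.554), and SNAT2, Slc38a2, at 243, 264 and 313 CPM against 329.8, 279, 243 and 271 CPM. For Slc38a2 the log2 fold change of 0.04 ± 0.14 changed sign with limma-voom with sample quality weights or when replicate 1 of either genotype was left out. Slc36a4, a proton-independent amino acid carrier of the PAT family, was at 7.72, 10.6 and 10.6 CPM against 15.9, 16.3, 16.8 and 11.3 CPM (0.65 ± 0.19, edgeR adjusted p = 0.108). It was called by limma-voom with sample quality weights (0.00879), with the replicate block (0.0491) and without Hhex KO replicate 4 (0.0372). Slc7a11, the cystine-glutamate exchanger, did not reach the summed count.

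**Figure D3:**
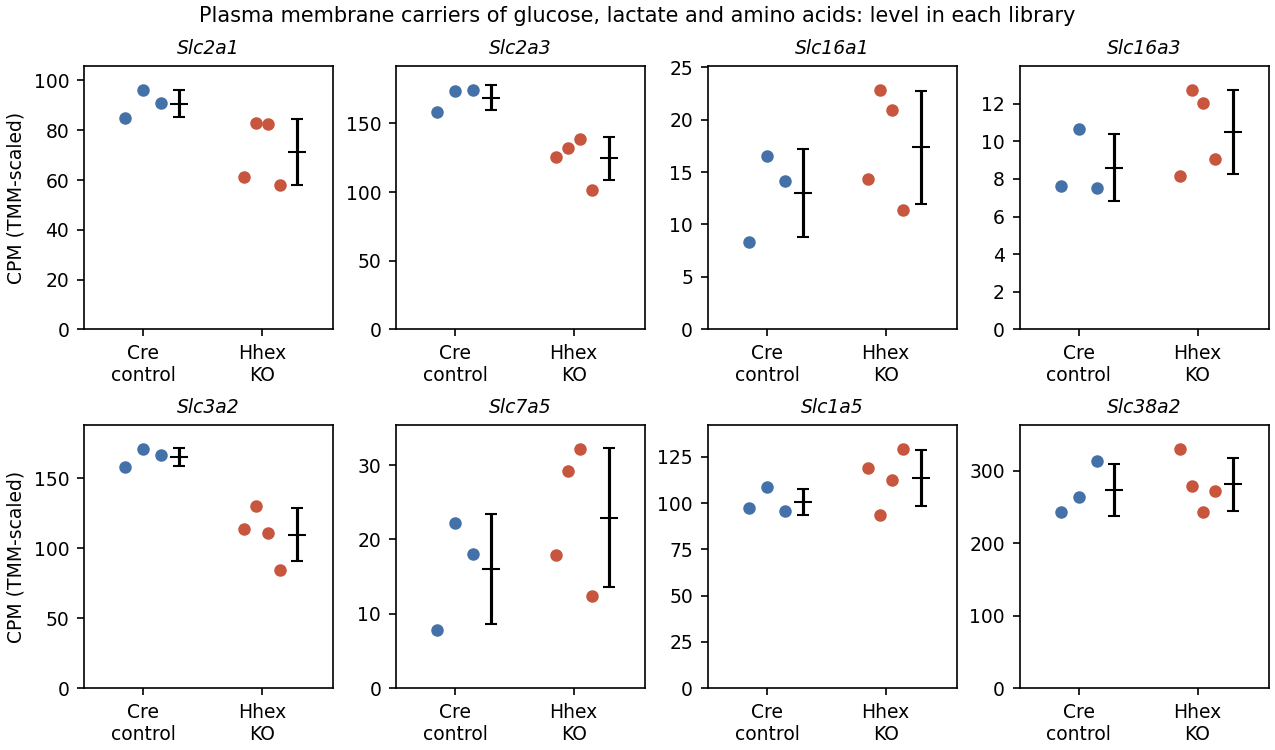
Levels of 8 plasma membrane carriers in each library, in CPM (y axis, linear from 0, a scale for each panel): glucose (Slc2a1, Slc2a3), lactate (Slc16a1, Slc16a3) and amino acids (Slc3a2, Slc7a5, Slc1a5, Slc38a2); points are libraries and bars the mean ± SD (n = 3 Cre control, n = 4 Hhex KO). Slc2a1, Slc2a3 and Slc3a2 lie lower in all 4 Hhex KO libraries than in any control, and the other panels overlap; edgeR called none of the 8.

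Genes that sense amino acids upstream of the kinase complex mTORC1, or answer amino acid shortage through ATF4, were taken from a list of 20, of which 16 were tested. By edgeR 0 were called higher and 2 lower (background 1.87%). The same counts came from DESeq2 (3.14%), limma-voom (2.06%) and limma-voom with sample quality weights (10.9%). The median log2 fold change was 0.03. Castor1, the cytosolic arginine sensor (chromosome 11, 4218225 to 4222409), stood at 22.1, 23.1 and 17.3 CPM in Cre control and 6.48, 6.99, 7.19 and 5.31 CPM in Hhex KO. It fell by 1.68 on the log2 scale (SE 0.17, edgeR adjusted p = 0.00129), with a wide gap between the groups. Atf4, the transcription factor that induces Slc3a2 and other amino acid carriers under stress, was at 348, 247 and 266 CPM against 194, 133, 119.5 and 166 CPM. It fell by 0.90 on the log2 scale (SE 0.19, adjusted p = 0.0351), and the call was lost without Cre control replicate 1 (0.173), 2 (0.0695) or 3 (0.12) or Hhex KO replicate 2 (0.0765) or 3 (0.0756).

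Among the 18 carriers of inorganic ions, 0 were called by edgeR, DESeq2 or limma-voom. Limma-voom with sample quality weights called 1 lower (background 10.9%), and 1 had an unadjusted p under 0.05 (18.5%). The median log2 fold change was -0.01. Slc12a2 (NKCC1), the sodium, potassium and chloride cotransporter that loads cells with chloride, was at 13.8, 19.4 and 16.3 CPM in Cre control and 10.6, 12.6, 12.9 and 9.74 CPM in Hhex KO. Its groups were the only ones of the 18 that did not overlap, and its log2 fold change was -0.52 ± 0.17 (edgeR adjusted p = 0.138). Slc12a4, the potassium and chloride exporter KCC1, had -0.25 ± 0.13 (adjusted p = 0.366). The phosphate carrier PiT1, Slc20a1, was the most abundant of the group per length, at 39.2 ± 7.11 RPKM in Cre control and 42.2 ± 15.1 RPKM in Hhex KO. In CPM it read 261, 182 and 214 in Cre control, 267 and 340.4 in Hhex KO replicates 1 and 4, and 165 and 168 in replicates 2 and 3. Slc9a9, the endosomal sodium-proton exchanger NHE9, followed at 21.7 ± 2.91 RPKM and 18.6 ± 3.48 RPKM.

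Ion pumps, which use ATP and set the gradients that many carriers use, were a list of 12, all tested. By edgeR 0 were called higher and 1 lower (background 1.87%), with a median log2 fold change of 0.07. DESeq2 called 2 lower (background 3.14%), limma-voom 1 (2.06%) and limma-voom with sample quality weights 3 (10.9%), with 0 higher by each. Atp13a2, a lysosomal polyamine exporter, was at 96.5, 77.9 and 89.8 CPM in Cre control and 65.8, 51.6, 47.7 and 53.8 CPM in Hhex KO. It fell by 0.69 on the log2 scale (SE 0.14, edgeR adjusted p = 0.0283), a call lost without Cre control replicate 1 (0.148), 2 (0.0551) or 3 (0.135) or Hhex KO replicate 2 (0.0666) or 3 (0.0723). The sodium pump subunit Atp1b1 was at 540.4 to 576 CPM in Cre control against 327 to 449 CPM in Hhex KO (-0.50 ± 0.14, edgeR adjusted p = 0.0925; DESeq2 0.0142; by limma-voom with sample quality weights 0.0252).

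Of the 24 metal carriers, Slc39a13 was the 1 called by edgeR (background 1.87% lower), and the median log2 fold change was -0.01, with 11 positive and 13 negative. DESeq2 called 2 lower (background 3.14%), limma-voom 1 lower (2.06%), and limma-voom with sample quality weights 1 higher (12.6%) and 2 lower (10.9%). Slc41a3, a magnesium carrier, was at 14.1, 17.8 and 15.3 CPM in Cre control and 9.002, 10.2, 11.9 and 10.8 CPM in Hhex KO, without overlap (-0.58 ± 0.16, edgeR adjusted p = 0.0737; DESeq2 0.0316; by limma-voom with sample quality weights 0.0181). The zinc importers Slc39a1 (ZIP1) and Slc39a6 (ZIP6) led the group per length in Cre control, at 18.3 ± 0.982 and 11.6 ± 2.10 RPKM. Slc40a1, the iron exporter ferroportin that marks splenic macrophages, was low and uneven, at 4.12, 10.5 and 1.84 CPM in Cre control and 3.63, 11.6, 1.00 and 0.797 CPM in Hhex KO. The highest library of each group was replicate 2. The macrophage genes Vcam1, C1qa and Csf1r were also highest there, with Vcam1 at 8.10 CPM in Cre control replicate 2 and 8.08 CPM in Hhex KO replicate 2 and at 0.443 to 3.67 CPM elsewhere. The 9 monocyte and macrophage markers summed to 45.7 to 135 CPM in Cre control against 13.02 to 260 CPM in Hhex KO. Of the 8 tested, 0 were called by edgeR or DESeq2 or had an unadjusted p under 0.05. The part of these markers in the Slc40a1 values was not tested. The log2 fold change of Slc40a1, -0.33 ± 0.93 (edgeR adjusted p = 0.914), turned positive when Cre control replicate 2 (0.54) or Hhex KO replicate 3 (0.01) or 4 (0.01) was left out.

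**Figure D4:**
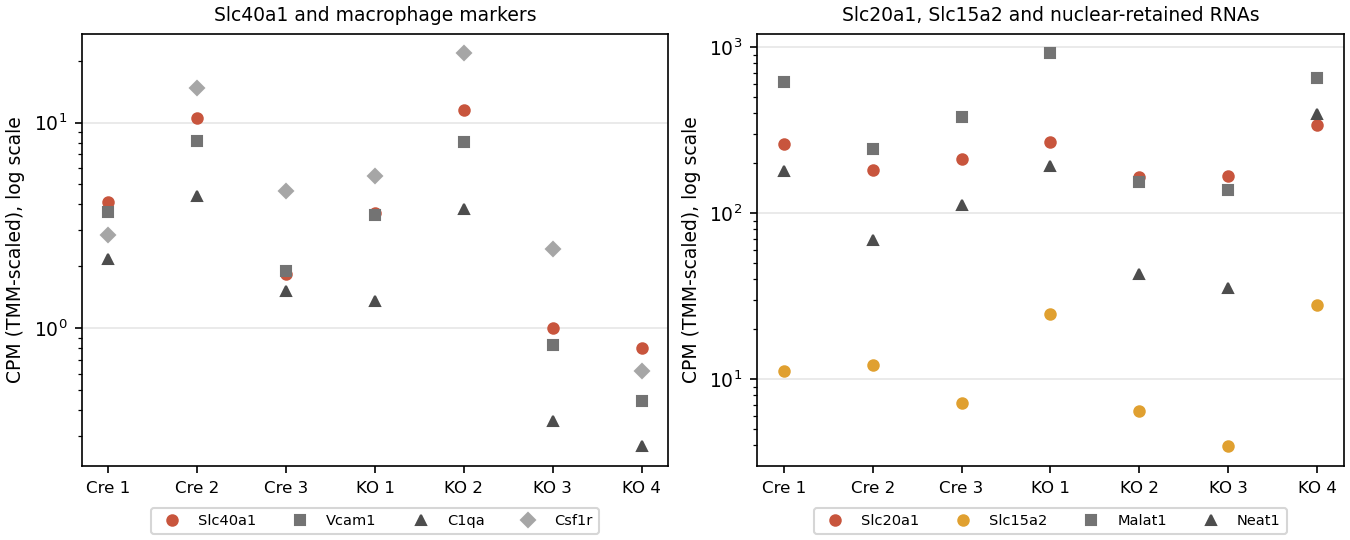
CPM in each library on a log scale. Left, Slc40a1 with the macrophage genes Vcam1, C1qa and Csf1r, all highest in replicate 2 of each genotype; right, Slc20a1 and Slc15a2 with the nuclear-retained RNAs Malat1 and Neat1, all higher in Hhex KO replicates 1 and 4 than in replicates 2 and 3.

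The mitochondrial group was the largest, with 39 genes, and 0 were called by edgeR, with 4 at an unadjusted p under 0.05 (background 18.5%). DESeq2 called 2 higher (background 4.54%), limma-voom 0, and limma-voom with sample quality weights 4 higher (12.6%) and 2 lower (10.9%). The median log2 fold change was -0.04. Genes were placed in this group mainly by family number, so not every one need be a carrier of the mitochondrial inner membrane. Slc25a13, the aspartate-glutamate carrier citrin of the malate-aspartate shuttle, had the largest estimate of the group, 1.22 ± 0.36 (edgeR adjusted p = 0.0999). It was low, at 2.77, 3.61 and 2.81 CPM in Cre control and 5.31, 8.54, 10.6 and 3.81 CPM in Hhex KO, with no overlap but a narrow gap at Hhex KO replicate 4. It was called with no filter (0.0425), by DESeq2 (0.0222), by limma-voom with sample quality weights (0.00493), with the replicate block (0.0295) and without Hhex KO replicate 4 (0.027). Slc25a4, the ADP/ATP exchanger ANT1, was at 47.9, 66.5 and 56.9 CPM against 75.9, 94.7, 103 and 68.3 CPM (0.58 ± 0.18, edgeR adjusted p = 0.108). It was called by DESeq2 (0.0419), by limma-voom with sample quality weights (0.00648), with the replicate block (0.0265) and without Hhex KO replicate 4 (0.0457). Its paralogue ANT2, Slc25a5 (chromosome X, 36795651 to 36798807), had the highest level per length of all 169 genes, 161 ± 18.8 RPKM in Cre control and 202 ± 56.2 RPKM in Hhex KO. In CPM it was 258, 299 and 239 against 250, 404, 422 and 257 (0.33 ± 0.22, edgeR adjusted p = 0.484, and 0.03 by limma-voom with sample quality weights). Replicates 2 and 3 of Hhex KO were the high ones. The phosphate carrier Slc25a3 was next in the group, at 66.5 ± 2.56 RPKM in Cre control and 75.2 ± 5.97 RPKM in Hhex KO.

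Mitochondrial transport outside the Slc symbols was also read. The sideroflexins are a family of inner membrane proteins that includes serine carriers, and Sfxn2 and Sfxn3 were both lower in Hhex KO. Sfxn2 (chromosome 19, 46573365 to 46598066) stood at 15.7, 17.7 and 16.5 CPM in Cre control and 4.47, 3.04, 3.53 and 3.28 CPM in Hhex KO, and fell by 2.21 on the log2 scale (SE 0.18, edgeR adjusted p = 0.000395). Sfxn3 (chromosome 19, 45047503 to 45056383) stood at 159.8, 162 and 170.2 CPM against 99.2, 86.7, 89.5 and 86.4 CPM, and fell by 0.86 (SE 0.10, adjusted p = 0.00266). Both groups were tight and far apart. The log2 fold change was 0.26 ± 0.10 for the serine carrier Sfxn1 (edgeR adjusted p = 0.229). It was -0.47 ± 0.48 for Sfxn4 (0.705) and -0.09 ± 0.32 for Sfxn5 (0.931). Sfxn2 and Sfxn3 were the 2 called by edgeR of 31 tested transporters with other symbols (background 1.87% lower), whose median was -0.03. DESeq2 called 2 of the 31 higher (background 4.54%) and 3 lower (3.14%), and limma-voom 2 lower (2.06%). Limma-voom with sample quality weights called 4 higher (12.6%) and 4 lower (10.9%). Sfxn2 and Sfxn3 lie on the chromosome that carries Hhex (37434810 to 37440731), as does Sfxn4, which was not called. The part of this location in their levels was not tested. Of the 7 genes of the mitochondrial calcium uniporter complex, 0 were called by edgeR, DESeq2, limma-voom or limma-voom with sample quality weights. For 2, Mcub and Micu2, the unadjusted p was under 0.05 (background 18.5%).

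Among the 25 carriers of nucleosides and nucleotide sugars, Slc35e4 was the 1 called by edgeR (background 1.87% lower), and the median log2 fold change was 0.07. For 4 the unadjusted p was under 0.05 (background 18.5%). DESeq2 called 1 higher (background 4.54%) and 1 lower (3.14%), and limma-voom 1 lower (2.06%). Limma-voom with sample quality weights called 3 higher (12.6%) and 3 lower (10.9%). Slc43a3, a purine base carrier, was at 4.65, 8.80 and 6.54 CPM in Cre control and 14.3, 13.2, 17.0 and 8.24 CPM in Hhex KO (0.99 ± 0.29, edgeR adjusted p = 0.0986). It was called by DESeq2 (0.0208), by limma-voom with sample quality weights (0.00781), with no filter (0.0438), with the replicate block (0.0397) and without Hhex KO replicate 4 (0.0298). Replicate 4 of Hhex KO lay within the control range. The Golgi GDP-fucose carrier Slc35c1 and the related Slc35a4 had the highest levels per length in Cre control, both 32.0 RPKM.

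Of the 21 carriers of vitamins, choline, lipids and other organic solutes, edgeR called Slc27a6 higher (background 2.68%) and Slc46a3 lower (1.87%). The median log2 fold change was -0.06. For 8 the unadjusted p was under 0.05 (background 18.5%), and the groups did not overlap for 2 that were higher (background 9.37%) and 5 that were lower (background 9.98%). DESeq2 called 1 higher (background 4.54%) and 2 lower (3.14%), and limma-voom 1 higher (2.71%). Limma-voom with sample quality weights called 3 higher (12.6%) and 4 lower (10.9%). Slc44a2, a choline transporter-like protein, was the most abundant per length, at 47.1 ± 3.33 RPKM in Cre control and 46.1 ± 3.17 RPKM in Hhex KO. The lysosomal heme transporter Slc48a1 followed at 21.5 ± 3.24 RPKM in Cre control. The 4 genes named after a carrier had a median of 0.04, with Slc9a3r2 the 1 called. Slc7a6os had 0.09 ± 0.25, which changed sign under some alternatives, and Slc4a1ap stood at 8.25 ± 0.278 RPKM in Cre control.

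**Figure D5:**
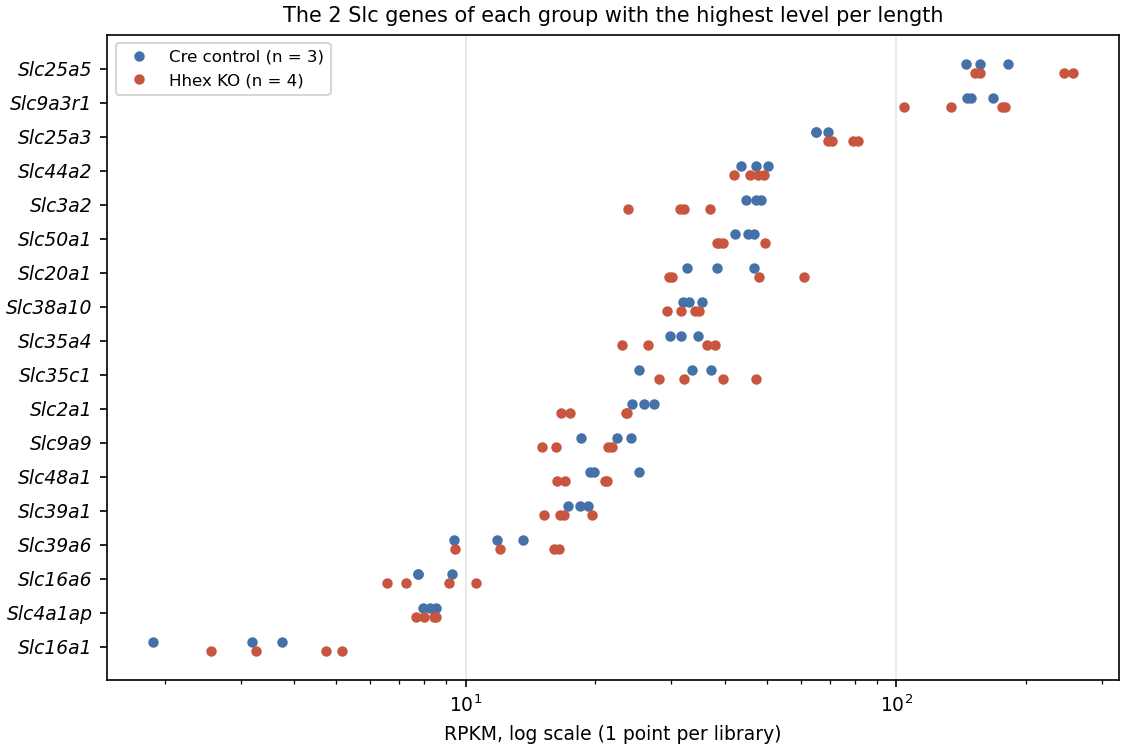
Level per length in each library of the 2 most abundant genes of each substrate group, in RPKM on a log scale (x axis); each point is a library, coloured by genotype. Slc25a5 and Slc9a3r1 lie highest, and the genotypes overlap for most genes shown.

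In Cre control the level per length ranged from 0.172 to 161 RPKM over the 169 genes, with a median of 5.50 RPKM. There were 49 genes at 10 RPKM or more and 16 under 1 RPKM. The split within Hhex KO touched many of them. Replicates 1 and 4 lay both above 2 and 3 for 48 of the 169 genes (28.4%; 31.2% of all tested) and both below for 70 (41.4%; 36.4%). Slc15a2, the oligopeptide carrier PEPT2, showed it most plainly, at 24.9 and 27.99 CPM in replicates 1 and 4, 6.47 and 3.95 CPM in replicates 2 and 3, and 7.24 to 12.2 CPM in Cre control (log2 fold change 0.62 ± 0.65, edgeR adjusted p = 0.708). It was named here after its values were seen. Malat1 read 918 and 649.7 CPM in replicates 1 and 4 and 155 and 138 CPM in replicates 2 and 3. Whether this RNA difference plays a part in the spread of carrier levels was not tested.

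Of the 202 protein-coding Slc genes below 200 summed counts, 99 had no read in any library. Among the nearest below were Slc24a3 (133), Slc11a1 (151) and Slc15a3 (174), and the nearest above were Slc25a27 (215), Slc4a8 (259), Slc7a7 (302) and Slc27a1 (306). Slc7a7, a light chain for cationic amino acids, was at 0.899 to 2.27 CPM in Cre control against 2.66 to 4.53 CPM in Hhex KO (1.02 ± 0.36, edgeR adjusted p = 0.16). As its sum includes the higher Hhex KO values, its place in the set may depend on them. Of the 202, 16 passed the filter on low counts, and 0 were called by edgeR, DESeq2 or limma-voom. For 5 the unadjusted p was under 0.05 (background 18.5%). Limma-voom with sample quality weights called 4 (background 12.6% higher and 10.9% lower).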

How the data were processed

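The authors deposited raw counts per gene for the 7 libraries, made from 75 bp single-end reads of directional libraries per the labels' protocols. STAR, featureCounts and mm10 are named, without versions, in the submitters' processing notes. The annotation and the strand setting of the counting were not stated there, and overlapping genes may share reads: 48 of the 169 genes share exon bases with another gene, 10 of them at least 10%. Identifiers matched GENCODE M21 (GRCm38, mm10) at 94.8% with version and 99.8% without, and 0 columns were left unused. Coordinates are 1-based. Promoter windows are from RefSeq.

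The whole table was fitted with edgeR 4.0.16 in R 4.3.3: filter by expression (minimum count 10, minimum total 15), TMM scaling, robust quasi-likelihood F test of Hhex KO against Cre control, no covariate, Benjamini-Hochberg adjustment over 12161 genes, threshold 0.05. The SE is the log2 fold change divided by the square root of F. No replicates agreed within sampling noise, so each library counts once. They are called biological replicates, with no animal named, and the p-values cover only the spread among these libraries, which may be technical. The members, groups and lists were chosen with earlier results of these data known. The genes named were the called members, the 2 most abundant per length and the 2 with the smallest p in each substrate group, a fixed set of fuel and iron carriers, and up to 2 with the smallest p in each other list. Slc15a2, Nptn, Sfxn1, Sfxn4 and Sfxn5 were added after their values were seen. The values of some genes are not reported here.

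Alternatives were no filter, a stricter filter (10 CPM or more in 3 libraries or more), scaling by RLE or upper quartile, a replicate block, DESeq2 1.42.0, limma 3.58.1 (voom, plain or with sample quality weights), leaving out each library, members with at least 1000 counts, and carriers only. On simulated counts of the 12161 genes, edgeR recovered 5 of 67 genes changed 1.5-fold, 36 of 67 changed 2-fold and 58 of 66 changed 4-fold. Of its calls there, 6.6% were unchanged genes. The counts were drawn gene by gene, without the split of Hhex KO replicates 1 and 4 from 2 and 3, so recovery in the real data may differ.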

Additional observations from a re-analysis of the deposited data

Results flagged for a closer look

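The level of Slc50a1, a sugar efflux protein, in 1 Hhex KO library lay far from the others: replicate 4 read 72.5 CPM and replicates 1, 2 and 3 read 57.96, 56.02 and 56.7 CPM. The gap between replicate 4 and the nearest library was 0.883 of the group's range, above Dixon's critical value for 4 samples. Slc50a1 was 1 of 40 genes of the set tested in this way, and chance flags about 1 in 20 groups. The Cre control libraries read 61.7 to 68.6 CPM.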

How the results depend on the processing

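The count of 2 higher genes was 4 with no filter (1.66% of all genes tested there), 6 with DESeq2 (4.54%), 16 with limma-voom with sample quality weights (12.6%), 8 with the replicate block (4.11%), 1 among genes with at least 1000 counts and 1 among carriers only. Leaving out 1 library gave 1 to 7, with 1 (Slc9a3r2) without any control library and 7 without Hhex KO replicate 4 (4.35%). The count of 3 lower genes was 7 with DESeq2 (3.14%) and 18 with limma-voom with sample quality weights (10.9%), and 1 to 4 with 1 library left out, being 1 (Slc35e4) without Cre control replicate 1 or 3. All other settings kept both counts within 1.5 times. The labels do not say whether the replicate numbers pair the samples. The correlations of same-numbered libraries were 0.144, 0.611 and -0.156 for numbers 1, 2 and 3, so pairing is not known. The block fit used the 6 libraries numbered 1 to 3. The sample number of Hhex KO replicate 4 is 95, and those of the other libraries lie from 20 to 28. The labels do not say whether this marks a batch, and as it would hold 1 library of 1 group, no within-batch value can be had. Over 38 named genes, 491 alternative values kept direction and side of the threshold, 28 lost the call, 32 gained it and 13 changed sign. Those were Slc11a1 (-0.18 with limma-voom, -0.11 and -0.13 without Cre control replicates 1 and 3, -1.20 without Hhex KO replicate 2; range with 1 library left out -1.20 to 0.86), Slc38a2 (-0.04 with limma-voom with sample quality weights, -0.04 without Cre control replicate 1, -0.05 without Hhex KO replicate 1; range to 0.15), Slc40a1 (0.54, 0.01 and 0.01 without Cre control replicate 2 and Hhex KO replicates 3 and 4; range from -1.55) and Slc7a6os (-0.28 with limma-voom with sample quality weights, -0.18 with the replicate block, -0.15 without Hhex KO replicate 4; range to 0.23). The causes were not tested. With a median SE of 0.16 on the log2 scale and most simulated 1.5-fold changes missed, many changes of carriers of this size may have been missed.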
